A study of Mus musculus with 12 samples.

Results

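The NF-kB subunit genes are the 5 genes Rela, Rel, Relb, Nfkb1 and Nfkb2, chosen by gene symbol from the 25124 entries of the table, and all 5 were present and expressed highly enough to be tested. RNA was measured in 12 polyA RNA-seq libraries of MC3T3-E1, a mouse calvarial line of osteoblast precursors, with 3 libraries in each of 4 groups. The first group was given TNFa at 10 ng/mL and then BMP4 at 10 ng/mL, the second TNFa alone, the third BMP4 alone, and the fourth neither factor (untreated). All groups were first kept in 2.5% serum for 30 min; the treatment protocol places TNFa 30 min before a 3 h period with or without BMP4, but another label field lists 3 h for both factors, and how long TNFa was present therefore cannot be fixed. "p65" appears unexplained in the titles of libraries with TNFa alone, and no genetic change is described for any group. By its title the study concerns how Smad4 and p65, the product of Rela, interact when BMP protects cells from inflammatory death.

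NF-kB proteins act as dimers that bind DNA through a shared Rel homology domain. RelA, c-Rel and RelB carry activation domains, while Nfkb1 and Nfkb2 encode the precursors p105 and p100, which are processed to p50 and p52. In resting cells the dimers are held in the cytoplasm by IkB proteins. TNF receptors release RelA-p50 within minutes through the IKK kinases (the canonical route), and a slower route through the kinase NIK converts p100 to p52, the usual partner of RelB (the non-canonical route). In the skeleton the pathway is best known for its requirement in osteoclast formation.

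The deepest library, TNFa+BMP4 replicate 2, had a total of 20.6 M tags, and the other 11 had totals between 13.7 M and 15.5 M tags (M, mega). Batch 1 holds replicate 1 of every group and batch 2 holds replicates 2 and 3; 64.1% of the 11765 tested genes differed between the batches at an adjusted p under 0.05. The osteoblast-lineage matrix genes were abundant in untreated cells (Col1a1 17.33 ± 0.10 and Sparc 16.28 ± 0.03 on the deposited log2 scale, mean ± SD, n = 3), whereas the later markers Alpl, Bglap and Ibsp were near the bottom of the scale (0.33 ± 0.00, -0.02 ± 0.03 and -1.24 ± 0.00). Of 6 macrophage and leukocyte markers, only Cd68 passed the minimum level, and Adgre1 and Cd3e were listed at 0 in every library. Nothing in the labels says that replicates were separate cultures, so a p-value here reflects how much these libraries vary, which may be technical, and in bulk RNA more cells expressing a gene cannot be told apart from more RNA per cell.

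The 5 genes lie on 4 chromosomes. On mm10 the transcripts counted are Rela (NM_009045, chromosome 19, 5637541 to 5648134), Nfkb1 (NM_008689, chromosome 3, 135584655 to 135691547), Rel (NM_009044, chromosome 11, 23736850 to 23770969), Nfkb2 (NM_019408, chromosome 19, 46305695 to 46312090) and Relb (NM_001290457, chromosome 7, 19606223 to 19629438). RefSeq promoter windows of 300 bases on GRCm38.p6, from 250 bases before to 50 after a start site, were available for 3 of the 5 genes (Rela, Rel and Nfkb2). No window was available for Nfkb1 and Relb, so their promoters were not searched. The windows were searched on both strands for the kB consensus, the degenerate 10-base site that NF-kB dimers bind. It was written GGGRNWYYCC, where R is A or G, N any base, W A or T, and Y C or T. It occurs in 4.51% of all 32851 such windows. The Rel window and 2 of the 3 Nfkb2 windows are shown because they hold matches and both genes rose with TNFa, and capitals mark the matched bases, with overlapping matches merged. The first Nfkb2 window (chr19:46304487-46304786, plus strand) belongs to an upstream start site, the second (chr19:46305445-46305744, plus strand) to the start of the counted transcript, and the Rel window (chr11:23770920-23771219, minus strand) to the start of the counted Rel transcript.
Nfkb2 upstream start: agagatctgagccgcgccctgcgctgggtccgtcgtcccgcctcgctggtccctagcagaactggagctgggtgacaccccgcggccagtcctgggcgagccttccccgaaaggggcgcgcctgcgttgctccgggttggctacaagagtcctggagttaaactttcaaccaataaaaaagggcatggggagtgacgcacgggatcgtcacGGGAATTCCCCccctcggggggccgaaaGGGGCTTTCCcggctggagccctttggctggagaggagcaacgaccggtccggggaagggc
Nfkb2 counted start: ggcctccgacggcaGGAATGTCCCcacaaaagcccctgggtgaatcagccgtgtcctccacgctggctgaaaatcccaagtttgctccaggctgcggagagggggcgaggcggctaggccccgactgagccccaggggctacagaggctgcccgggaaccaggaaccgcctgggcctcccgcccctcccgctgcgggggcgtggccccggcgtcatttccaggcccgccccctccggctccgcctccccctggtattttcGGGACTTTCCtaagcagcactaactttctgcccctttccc
Rel counted start: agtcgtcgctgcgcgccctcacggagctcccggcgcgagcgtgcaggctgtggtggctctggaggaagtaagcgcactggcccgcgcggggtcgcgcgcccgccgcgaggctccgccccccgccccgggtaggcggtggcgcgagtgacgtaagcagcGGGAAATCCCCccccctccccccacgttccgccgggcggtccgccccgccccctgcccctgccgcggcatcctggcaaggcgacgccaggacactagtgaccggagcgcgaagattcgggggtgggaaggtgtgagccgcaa

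The upstream Nfkb2 window holds the stretch GGGAATTCCCC beginning 39 bases before the start site, and GGGGCTTTCC beginning 11 bases before it. At the counted Nfkb2 start, GGAATGTCCC begins 236 bases upstream and GGGACTTTCC begins 10 bases downstream. The third Nfkb2 window (chr19:46305680-46305979, plus strand), not shown because it overlaps the one at the counted start, has that same GGGACTTTCC site as its only match, 225 bases upstream of its own start site. The Rel window holds a single stretch, GGGAAATCCCC, beginning 92 bases upstream. The window at the counted Rela start has no match of these letters. A match describes the sequence and is no evidence of binding in these cells.

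TNFa alone raised all 5 subunit genes relative to untreated cells, by between 1.28-fold for Rel and 5.90-fold for Relb. These folds are taken from the deposited log2 values, whose transformation is not named. The authors' own fold changes, given below, are larger. Among all tested genes 15.5% were called in the same comparison, 9.16% higher and 6.32% lower, with limma and a Benjamini-Hochberg adjusted p under 0.05. The median log2 fold change was 0.83 over the 5 genes and -0.01 over all tested genes. Of the 7 osteoblast-lineage markers tested, 0 rose and 2 fell with TNFa (Runx2 -0.60 ± 0.07 and Pth1r -0.65 ± 0.09). The authors' deposited table also calls Sp7 lower (-1.72, adjusted p = 0.0139). The macrophage marker Cd68 was at 4.55 ± 0.16 in TNFa cells and 4.48 ± 0.08 in untreated cells. The part of these markers in the rise of the subunits was not tested. Fold changes below are log2 ± SE from the model with batch, with n = 3 libraries per group.

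Rela, which encodes the main activating subunit of the canonical route, had deposited log2 values of 11.40, 11.61 and 11.63 in TNFa libraries 1 to 3, against 10.46, 10.88 and 10.95 in untreated libraries 1 to 3. Every TNFa library was above every untreated one, and replicate 1 was the lowest of each group. The log2 fold change was 0.78 ± 0.05 (adjusted p = 7.59e-10), and it was 0.94 in batch 1 and 0.71 in batch 2. In the ranking of all 11765 tested genes by their rise on the deposited log2 scale, Rela stood at 156.

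Nfkb1, the source of p105 and p50, had log2 values of 11.50, 11.22 and 11.24 in TNFa libraries, against 10.57, 10.41 and 10.48 in untreated libraries. The groups did not overlap, and replicate 1 was the highest of each. The log2 fold change was 0.83 ± 0.08 (adjusted p = 2.03e-07), at rank 139.

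Rel, which encodes c-Rel, a subunit best known from lymphocytes, had log2 values of 9.40, 8.86 and 9.00 in TNFa libraries, against 9.04, 8.55 and 8.58 in untreated libraries. The groups overlapped when the batches were pooled, because both replicate 1 libraries were high, while within each batch every TNFa library was above the untreated ones. The log2 fold change of 0.36 ± 0.07 (adjusted p = 0.00118) was the same in batch 1 (0.36) and batch 2 (0.36). With no batch term in the model the change of Rel did not pass (adjusted p = 0.658).

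Nfkb2, the source of p100 and p52, had log2 values of 12.78, 12.56 and 12.60 in TNFa libraries, against 10.75, 10.67 and 10.73 in untreated libraries. The gap between the groups was far wider than the spread within them, and the log2 fold change was 1.93 ± 0.05 (adjusted p = 1.82e-16), at rank 22. Relb, whose protein pairs with p52, had log2 values of 10.87, 10.50 and 10.56 in TNFa libraries, against 8.09, 7.98 and 8.18 in untreated libraries. Its log2 fold change of 2.56 ± 0.08 (adjusted p = 1.08e-15) was at rank 10 of all tested genes. The authors' deposited table gives larger log2 fold changes of 2.97 for Relb, 2.07 for Nfkb2, 0.90 for Nfkb1, 0.85 for Rela and 0.43 for Rel, and calls each of the 5. The ranks describe the deposited log2 scale, whose transformation is not named, and may differ on the authors' scale. On the authors' scale Tnfaip3 (3.03) stands above Relb and Nfkbia (2.94) below it. On the deposited log2 scale Tnfaip3 (2.52) stands below Relb and Nfkbia (2.60) above it.

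**Figure D1:**
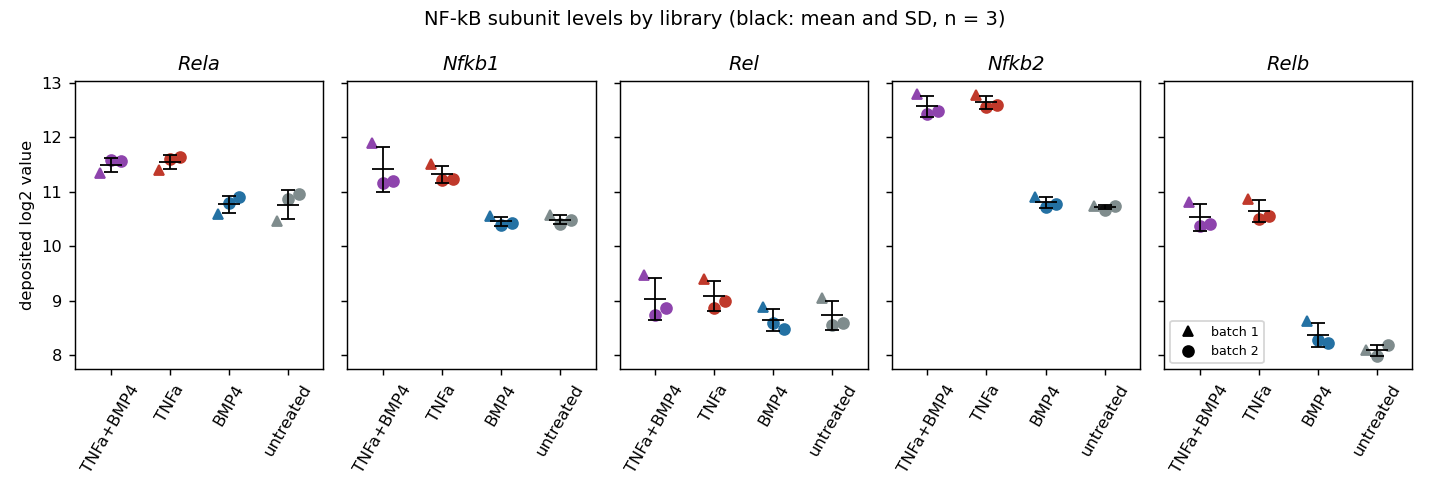
Deposited log2 values of the 5 subunit genes (y axis) in each library of the TNFa+BMP4, TNFa, BMP4 and untreated groups (x axis), with batch 1 as triangles, batch 2 as circles, and the mean and SD over 3 libraries in black. Relb and Nfkb2 show the widest gaps between groups with and without TNFa, and the Nfkb1 value of TNFa+BMP4 replicate 1 (11.89) lies above its other replicates (11.17 and 11.19).

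In cells that also received BMP4, TNFa again raised all 5 genes (TNFa+BMP4 against BMP4, 6 libraries that the previous comparison did not use). Both comparisons come from the same fit, with a common batch term and estimate of spread, so their p-values are not independent. Here 16.2% of all tested genes were called in either direction and 8.78% were called higher. Relb had log2 values of 10.82, 10.37 and 10.41 in TNFa+BMP4 libraries, against 8.62, 8.27 and 8.21 in BMP4 libraries, a change of 2.17 ± 0.08 (adjusted p = 2.16e-14). Nfkb2 had 12.80, 12.44 and 12.48 in TNFa+BMP4 libraries, against 10.91, 10.73 and 10.77 in BMP4 libraries, a change of 1.77 ± 0.05 (adjusted p = 1.04e-15). For both genes the groups were far apart, with replicate 1 the highest of each.

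Nfkb1 had log2 values of 11.89, 11.17 and 11.19 in TNFa+BMP4 libraries, against 10.55, 10.40 and 10.43 in BMP4 libraries. The groups did not overlap, but replicate 1 of TNFa+BMP4 stood well above the other 2, and the SD of that group (0.41) was the largest of any group for these genes. The change was 0.96 ± 0.08 (adjusted p = 2.82e-08), at 1.34 in batch 1 and 0.77 in batch 2. Rela had 11.34, 11.58 and 11.57 in TNFa+BMP4 libraries, against 10.60, 10.80 and 10.91 in BMP4 libraries, a change of 0.73 ± 0.05 (adjusted p = 3.36e-09) that was nearly equal in batch 1 (0.74) and batch 2 (0.72). Rel had 9.48, 8.74 and 8.87 in TNFa+BMP4 libraries, against 8.88, 8.58 and 8.48 in BMP4 libraries, a change of 0.38 ± 0.07 (adjusted p = 0.000644). The change of Rel was 0.60 in batch 1 and 0.28 in batch 2. The Rel groups overlapped across batches and not within them, and the change did not pass with no batch term (adjusted p = 0.586).

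Against untreated cells, the combination raised all 5 genes as well, where 31.2% of all tested genes were called in either direction and 16.8% were called higher. The changes were 2.45 ± 0.08 for Relb, 1.86 ± 0.05 for Nfkb2, 0.93 ± 0.08 for Nfkb1, 0.73 ± 0.05 for Rela and 0.30 ± 0.07 for Rel, where the largest adjusted p was 0.00305, for Rel. Without a batch term the adjusted p of Rel was 0.506. All 5 changes were larger in batch 1 than in batch 2, as for Nfkb1 (1.32 against 0.73) and Rel (0.43 against 0.24). Among the cell markers, Runx2 (-0.39 ± 0.07) was the 1 of 7 osteoblast-lineage genes that limma called lower in TNFa+BMP4 against untreated cells. Among all 11765 tested genes, 1700 were called lower in this comparison. The authors' deposited table also calls Col1a1 lower (-0.20, adjusted p = 0.00299). Of 3 endothelial markers only Pecam1 passed the minimum level, and Cdh5 and Kdr had mean log2 values of -2.21 and 0. Pecam1 rose by 0.39 ± 0.08, with levels of 5.21 ± 0.12 in TNFa+BMP4 cells and 4.83 ± 0.21 in untreated cells. Against BMP4 cells, 872 of all 11765 tested genes were called lower in TNFa+BMP4 cells. Of 7 osteoblast-lineage genes 3 fell in that comparison (Pth1r -0.68 ± 0.09, Sp7 -0.60 ± 0.12 and Runx2 -0.55 ± 0.07). The part of these cell markers in the rise of the subunits was not tested. The comparison of TNFa+BMP4 with untreated cells shares its untreated libraries with the one of TNFa alone and its TNFa+BMP4 libraries with the one against BMP4.

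BMP4 alone moved the subunit genes little. Of the 5 genes 1 was called, Relb, beside 12.2% of all tested genes called in either direction and 6.75% called higher. Relb had log2 values of 8.62, 8.27 and 8.21 in BMP4 libraries, against 8.09, 7.98 and 8.18 in untreated libraries, a rise of 0.29 ± 0.08 (adjusted p = 0.0194) or 1.22-fold. The lowest BMP4 library was 8.21 and the highest untreated library 8.18, so the groups are separate by a narrow margin. The rise was 0.53 in batch 1 and 0.16 in batch 2. With single libraries removed, limma's adjusted p was 0.0859 without BMP4 replicate 1, 0.0522 without BMP4 replicate 2, 0.207 without untreated replicate 1 and 0.0531 without untreated replicate 2, and the call held in the other 2 of 6 fits. Relb is not called for BMP4 in the authors' deposited table (0.36, adjusted p = 0.179). Of the 7 osteoblast-lineage markers 2 rose and 0 fell with BMP4 alone, and their part in the subunit values was not tested.

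The other 4 genes had BMP4 changes of 0.09 for Nfkb2 (95% interval -0.02 to 0.20), 0.01 for Rela (-0.11 to 0.12), -0.03 for Nfkb1 (-0.21 to 0.14) and -0.08 for Rel (-0.23 to 0.07), none of which passed. The groups of each of these 4 genes overlapped.

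Adding BMP4 to TNFa-treated cells left the subunit genes without a called change: limma called 0 of 5 for TNFa+BMP4 against TNFa, 0 had an unadjusted p under 0.05, and the authors' deposited table also calls 0. In the same comparison 11.7% of all tested genes were called in either direction, 5.47% higher and 6.2% lower. The values were -0.11 ± 0.08 for Relb, -0.07 ± 0.05 for Nfkb2, -0.06 ± 0.07 for Rel, -0.05 ± 0.05 for Rela and 0.10 ± 0.08 for Nfkb1. Over the 5 genes the 95% intervals, taken gene by gene, lay between -0.27 and 0.27 on the deposited log2 scale. They reflect only how much these libraries vary. The Nfkb1 value rests on TNFa+BMP4 replicate 1: the difference was 0.39 in batch 1 and -0.05 in batch 2, and it was -0.08 without that library. Among the cell markers, 3 of 7 osteoblast-lineage genes rose in TNFa+BMP4 against TNFa cells. Pecam1 (0.46), the 1 of 3 endothelial markers that passed the minimum level, also rose. The part of these markers in the subunit values was not tested.

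The test of non-additivity, which is the TNFa change with BMP4 minus the TNFa change without it, also called 0 of 5 genes with limma, beside 0.017% of all tested genes, and 2 of the 5 had an unadjusted p under 0.05. Relb had -0.39 ± 0.11 (95% interval -0.63 to -0.16, unadjusted p = 0.00189, adjusted p = 0.596), negative in batch 1 (-0.58) and in batch 2 (-0.30). Nfkb2 had -0.16 ± 0.08 (unadjusted p = 0.045, adjusted p = 0.993). For Relb the value holds the rise with BMP4 alone and the small negative difference after TNFa, given above. Nfkb1 (0.13 ± 0.12), Rel (0.02 ± 0.10) and Rela (-0.06 ± 0.08) had intervals that spanned 0.

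**Figure D2:**
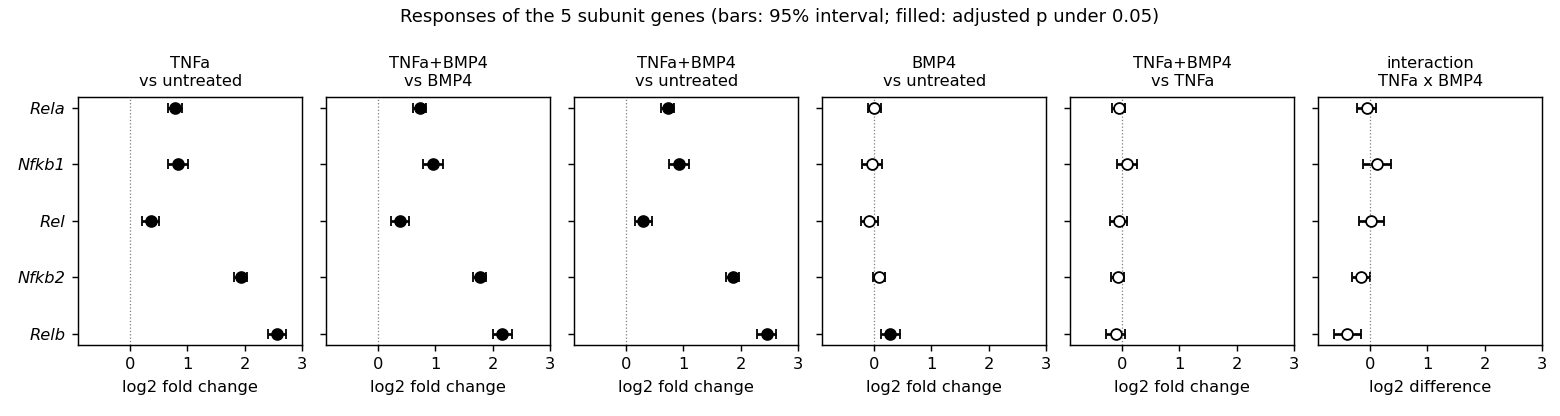
Log2 fold change (x axis) of each subunit gene (y axis) in 5 comparisons and, at the right, the log2 difference between TNFa changes with and without BMP4; bars are 95% intervals and filled points passed an adjusted p under 0.05. All points are filled in the 3 comparisons that add TNFa, and Relb alone is filled for BMP4 against untreated (0.29 ± 0.08).

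Divided by transcript length, the levels of the 5 genes were set beside one another, on the scale of log2 value per kilobase. The transformation behind the deposited log2 values is not named. The order of the genes therefore describes this scale and may not be that of RNA amounts. In TNFa+BMP4 cells the mean levels were 10.90 for Nfkb2, 10.09 for Rela, 9.41 for Relb, 9.38 for Nfkb1 and 6.13 for Rel. In TNFa cells they were 10.98 for Nfkb2, 10.14 for Rela, 9.52 for Relb, 9.29 for Nfkb1 and 6.19 for Rel. In BMP4 cells the order was Rela (9.36), Nfkb2 (9.13), Nfkb1 (8.43), Relb (7.24) and Rel (5.75). In untreated cells it was Rela (9.36), Nfkb2 (9.05), Nfkb1 (8.46), Relb (6.96) and Rel (5.83).

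Relb and Nfkb1, neighbours in both groups with TNFa, had overlapping ranges: the difference in level was 0.02 ± 0.16 in TNFa+BMP4 cells and 0.23 ± 0.04 in TNFa cells (SD, n = 3). Rela and Nfkb2, the leading pair without TNFa, also had overlapping ranges, with a difference of 0.23 ± 0.24 in BMP4 cells and 0.31 ± 0.29 in untreated cells. Rela was the higher in 2 of 3 libraries of each, replicates 2 and 3 of batch 2. In replicate 1, the batch 1 library, Nfkb2 was slightly higher (9.24 against 9.19 in BMP4 cells, 9.08 against 9.05 in untreated cells). The order of this pair thus differed between the batches. The other neighbours had separate ranges in each group.

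As a share of the summed level per kilobase of the 5 transcripts (linear scale, a description with no test), Nfkb2 made up 43.1% ± 0.92 in TNFa+BMP4 cells, 44.0% ± 1.08 in TNFa cells, 31.7% ± 1.68 in BMP4 cells and 30.7% ± 1.95 in untreated cells (SD, n = 3 each). Relb made up 15.3% ± 0.92 in TNFa+BMP4 cells, 16.0% ± 1.33 in TNFa cells, 8.59% ± 1.28 in BMP4 cells and 7.21% ± 0.46 in untreated cells. Rela made up 24.8% ± 4.79 in TNFa+BMP4 cells, 24.8% ± 3.37 in TNFa cells, 37.3% ± 4.24 in BMP4 cells and 38.3% ± 5.07 in untreated cells. Because the transformation of the log2 values is not named, these shares describe this scale and may not be shares of RNA amounts. On this scale the transcripts of Nfkb2 and Relb held a larger share with TNFa and Rela a smaller one, although Rela itself rose. Nfkb1 made up between 13.6% (TNFa) and 20.4% (untreated) on average, and Rel at most 3.36%.

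**Figure D3:**
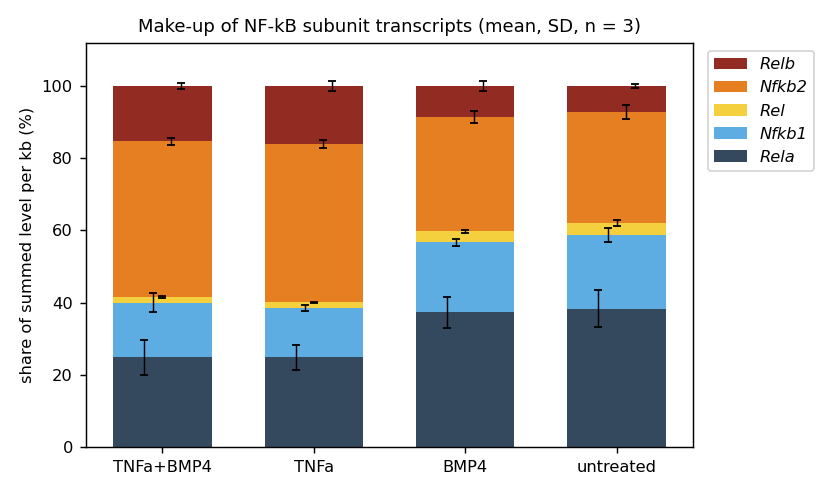
Share of the summed linear level per kilobase held by each of the 5 subunit transcripts (y axis, percent) in the 4 groups (x axis). Error bars at the top of each segment are the SD of that share over 3 libraries. Levels were taken back from deposited log2 values whose transformation is not named, so shares may not be those of RNA amounts. Nfkb2 and Relb take larger segments with TNFa (44.0% and 16.0% in TNFa cells) than in untreated cells (30.7% and 7.21%).

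All 5 genes also differed between the batches, beside the 64.1% of all tested genes given above. Rel was 0.49 ± 0.05, Nfkb1 0.31 ± 0.06, Relb 0.29 ± 0.06 and Nfkb2 0.18 ± 0.04 higher in batch 1 than in batch 2, and Rela was lower (-0.29 ± 0.04), where the largest adjusted p was 0.000445. The batch difference of Rel (0.49) is larger than its TNFa change (0.36), while for Relb and Nfkb2 the TNFa change is several times the batch difference.

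The other genes of the pathway were counted by role, from lists drawn up with earlier results of these data known. Of the ligand and receptor genes 9 of 19 were tested, and 3 rose with TNFa against untreated cells, where 9.16% of all tested genes were called higher and 6.32% lower: Tlr2, a pattern receptor that signals to NF-kB (2.99 ± 0.11), Tnfrsf1b, which encodes TNF receptor 2 (0.46 ± 0.09), and Tnfrsf12a, the TWEAK receptor (0.29 ± 0.07). Tnf itself was listed at 0 in every library. The main TNF receptor, Tnfrsf1a, had 0.09 ± 0.06 and did not pass.

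Among adaptors and ubiquitin ligases 7 of 19 rose with TNFa, where 9.16% of all tested genes were called higher. On the deposited log2 scale the largest changes were those of Birc3, a ubiquitin ligase of the TNF receptor complex (1.57 ± 0.12), and Traf3, which keeps NIK low (1.15 ± 0.06). In the authors' deposited table Traf1 of this list changed most (3.45, adjusted p = 2.75e-09), above Birc3 (2.26) and Traf3 (1.30). Of the IKK kinases and their relatives 5 of 8 rose, led by Ikbke (0.88 ± 0.10) and Map3k8, a kinase held by p105 (0.30 ± 0.09). Map3k8 was near the minimum level of 4 (5.30 ± 0.21 in TNFa cells) and is not called in the authors' deposited table (0.87, adjusted p = 0.0849). Of the IkB family 4 of 5 tested genes rose, with Nfkbie at 3.71 ± 0.05 and Nfkbia at 2.60 ± 0.13. Of the deubiquitinases and other brakes 5 of 10 rose, with Tnfaip3, which encodes A20, at 2.52 ± 0.11 and its partner Tnip1 at 1.65 ± 0.05. Of the genes for subunit processing, degradation and cofactors, a list called no more often than all tested genes (1 higher and 1 lower of 18, against 9.16% and 6.32%), the one that rose was Socs1, which promotes RelA ubiquitination (0.71 ± 0.08), and the one that fell was Pdlim2, which encodes a nuclear ubiquitin ligase for RelA (-0.53 ± 0.10). The median change of that last list was -0.01, against 2.07 for the IkB family and -0.01 over all tested genes.

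After BMP4 was added to TNFa-treated cells, 10 of the 69 tested genes of the 6 lists were called (14.5%, 6 higher and 4 lower), near the 11.7% of all tested genes. Of the ligand and receptor genes 4 of 9 rose, where 5.47% of all tested genes were called higher and 6.2% lower. Of the adaptors and ubiquitin ligases 0 of 19 rose and 1 fell, of the IKK kinases 1 of 8 rose and 0 fell, and of the IkB family 0 of 5 rose and 1 fell. Of the deubiquitinases and other brakes 1 of 10 rose and 2 fell, and of the 18 processing and cofactor genes limma called 0 (4 at an unadjusted p under 0.05). The ligand and receptor genes that rose included Tlr2 (0.49 ± 0.11) and Tnfrsf12a (0.46 ± 0.07). The authors' deposited table gives a larger change for Tnfrsf13c (1.81, adjusted p = 0.00308) than for Tlr2 (0.53) or Tnfrsf12a (0.50). Map3k14, which encodes NIK, rose by 0.28 ± 0.07 (adjusted p = 0.0147). Nfkbie fell by 0.33 on the log2 scale, with an SE of 0.05 (adjusted p = 0.000221). The deubiquitinase gene Cyld (-0.32 ± 0.05) and the adaptor gene Traf5 (-0.37 ± 0.08) also fell. Ikbke (-0.30 ± 0.10, adjusted p = 0.0501), Nfkbia (0.26 ± 0.13), Zc3h12a (-0.22 ± 0.11), Socs1 (-0.22 ± 0.08), Rnf31 (-0.18 ± 0.07) and Crebbp (-0.15 ± 0.07) did not pass. Of these 6, the authors' deposited table calls Nfkbia (0.28, adjusted p = 4.50e-05) and Ikbke (-0.37, adjusted p = 0.0115) for TNFa+BMP4 against TNFa, in the same directions. Nfkbie was 1 of the 2 genes called for non-additivity (-0.49 ± 0.07, adjusted p = 0.02), a count that was 0 to 7 when a library was left out.

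**Figure D4:**
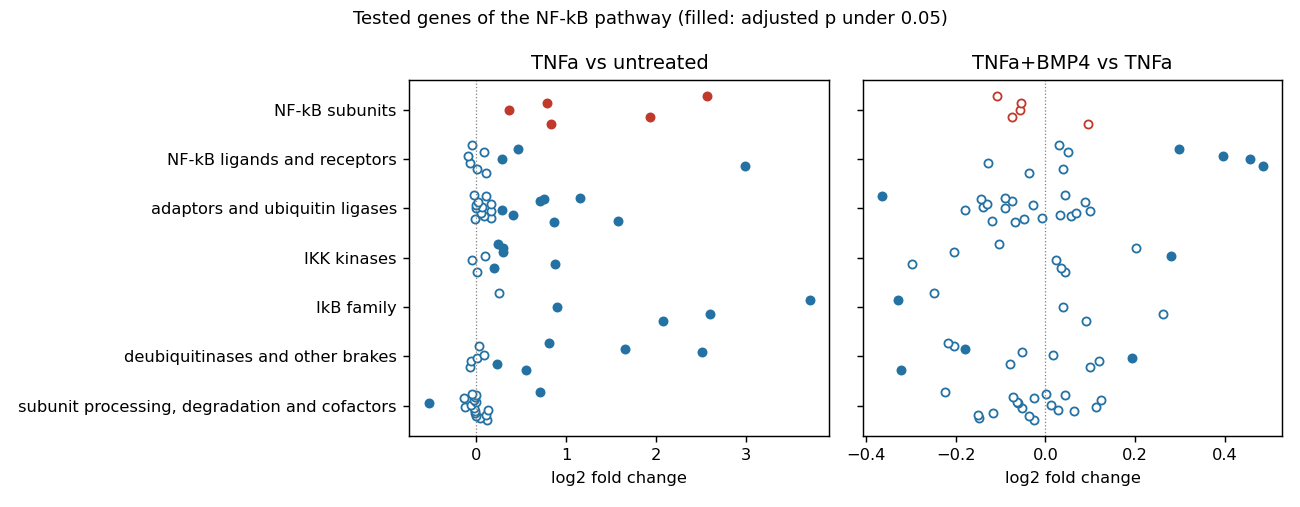
Log2 fold change (x axis) of every tested gene in the subunit set (red) and 6 pathway lists (blue) for TNFa against untreated cells (left) and TNFa+BMP4 against TNFa (right), on different x scales; filled points passed an adjusted p under 0.05. At the left all 5 subunit points are filled, and at the right they lie between -0.11 (Relb) and 0.10 (Nfkb1) and are open.

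Smad4, the partner of p65 named in the study's title, had levels of 10.69 ± 0.04 in TNFa+BMP4 cells, 10.74 ± 0.04 in TNFa cells, 10.80 ± 0.10 in BMP4 cells and 10.76 ± 0.04 in untreated cells. Its changes lay between -0.12 ± 0.05 (TNFa+BMP4 against BMP4, adjusted p = 0.165) and 0.04 ± 0.05 (BMP4 against untreated), and none passed.

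The genes, other than the subunits themselves, whose batch-centred pattern over the 12 libraries was most like each subunit were found by Pearson's r, as a description. For Nfkb2 they were Traf3 (0.998), Tnip1 (0.998) and the surface protein gene Cd47 (0.997). For Relb they were the cytokine receptor gene Il6st (0.998), Gnptab (0.997) and Psd (0.996). For Rela they were Ctps (0.996), Nfe2l1 (0.996) and the class I gene H2-K1 (0.994). Nfkb1 was most like Abcb1b (0.991), Abcc1 (0.990) and the receptor gene Nod2 (0.990), and Rel was most like Rab32 (0.973), Pabpc1 (0.972) and the cytokine gene Lif (0.970). Among the subunits themselves r ran from 0.915 (Rel and Relb) to 0.998 (Nfkb2 and Relb). With subunits counted, Relb would stand above Cd47 for Nfkb2, Nfkb2 above Gnptab for Relb, and Nfkb2 (0.994) above H2-K1 for Rela. The libraries fall into those with and without TNFa, and the same libraries and depths underlie every pair.

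Psd is the neighbour of Nfkb2. Its counted transcript (NM_001347454, chromosome 19, 46312085 to 46326866, minus strand) runs towards Nfkb2 and shares 6 bases with the span of the counted Nfkb2 transcript, and annotated exons of the genes share 299 bases on GENCODE vM21. Psd had log2 values of 9.51, 10.93 and 11.00 in TNFa libraries, against 7.36, 9.03 and 9.14 in untreated libraries, a rise of 1.97 ± 0.07 (adjusted p = 4.92e-15). Replicate 1 was low in each of the 2 groups, unlike Nfkb2, for which it was high. No strand setting is given in the sources used here, so reads from the 2 genes in their shared stretch cannot be told apart. The same holds for AC114539.1, a long non-coding RNA gene on the strand opposite Nfkb2, whose exons share 531 bases with it; no level of that gene is given here.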

How the data were processed

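The 12 libraries and their groups were taken from the sample titles. Per the submitters' processing notes the tools were Trim Galore, HISAT2 and HOMER with mm10, with no versions; HOMER, per the file headers, summed unnormalized exon reads with 1 transcript kept for each gene, and tested pairs of groups with batch as a factor. The authors deposited log2 values for each library (transformation not named, not adjusted for batch), and log2 fold changes with p-values and adjusted p-values for each pair of groups. No counts are in the table, so no counting intervals are given. The labels and the header number the batches the opposite way round; the labels' numbers are used.

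Of 17701 genes with a value other than 0 in some library, the 11765 whose mean reached 4 on the log2 scale were tested. The test was limma 3.58.1 in R 4.3.3, as groups plus an additive batch term over all 12 libraries (7 residual degrees of freedom, variance trend). Two-sided p-values were adjusted within each contrast over all tested genes, with a threshold of 0.05. Tests on simulated data recovered the changes put in. Level per kilobase is the log2 value minus log2 of the transcript's exon length. The members and lists were chosen with earlier results of these data known. The genes named were the 5 subunits, Smad4, the 3 genes most like each subunit, and some genes from every list. From every list they were the 2 that changed most, in absolute terms, in TNFa against untreated and in TNFa+BMP4 against TNFa. Tnf, Tnfrsf1a, Traf1, Tnfrsf13c and the cell markers were added after their values were seen. Alternatives were a replicate block, no batch term, other level minima, quantile normalization, median centring, no variance trend, batch 2 alone, Spearman correlation, levels not divided by length, and leaving out each library. A planned comparison of the subunit proteins was not made here.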

Additional observations from a re-analysis of the deposited data

How the results depend on the processing

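Of the 16 called changes of the subunit genes, 229 of 240 alternative values stayed called in the same direction, 11 lost the call and 0 reversed; the 14 uncalled values were called under 0 alternatives. Of the 11, 8 belong to Relb with BMP4 (range 0.16 to 0.39) and 3 to Rel in the 3 comparisons that add TNFa, all with no batch term; the cause was not tested. The number of subunits called for BMP4 against untreated was 0 with no batch term, with no filter on low values and in batch 2 alone, and 0 to 1 over the fits leaving out a library.

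Uncalled values near 0 changed sign in places. In batch 2 alone Rela with BMP4 had -0.061, Nfkb1 after adding BMP4 to TNFa -0.052, and the non-additivity values were -0.015 for Nfkb1, -0.082 for Rel and 0.010 for Rela. Rela with BMP4 had -0.047 with quantile normalization. Leaving out a library gave -0.11 to 0.045 for Nfkb1 and -0.068 to 0.056 for Rela with BMP4, -0.083 to 0.17 for Nfkb1 and -0.135 to 0.0095 for Rel after adding BMP4 to TNFa, and for non-additivity -0.052 to 0.21 (Nfkb1), -0.055 to 0.090 (Rel) and -0.11 to 0.014 (Rela).

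With no batch term limma called 383 genes for TNFa, 114 for BMP4 and 869 for the combination against untreated, 105 for TNFa+BMP4 against TNFa, 345 against BMP4 and 0 for non-additivity, where the model with batch called 1822, 1438, 3673, 1373, 1905 and 2. Without a filter, 906 were called for TNFa+BMP4 against TNFa and 0 for non-additivity. For non-additivity quantile normalization gave 1, batch 2 alone 15 and leaving out a library 0 to 7. Leaving out a library gave 756 (without untreated replicate 1) to 1332 for BMP4, with 951 without BMP4 replicate 1, and 752 (without TNFa replicate 1) to 1066 for TNFa+BMP4 against TNFa, with 909 without TNFa replicate 2 and 800 without TNFa+BMP4 replicate 1.

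A fit with the replicate number as a block changed no call of a subunit gene (Relb with BMP4 0.29, adjusted p = 0.0265) and called 1 gene for non-additivity. Within batch 2 the differences between replicates 2 and 3 correlated between groups at 0.0199 to 0.164, so the numbers are not taken as pairs.

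Not divided by length, Rel ranks 4 and Relb 5 in untreated cells, Nfkb1 3 and Relb 4 in TNFa cells and in TNFa+BMP4 cells, and in BMP4 cells Nfkb2 1, Rela 2, Rel 4 and Relb 5. By Spearman's correlation 0 of the 3 most similar genes were shared for Nfkb1, Nfkb2, Rel and Rela, and 1 for Relb.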
